A study of Mus musculus with 2 samples.

Results

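Zfp36, Zfp36l1 and Zfp36l2 are the 3 genes of the tristetraprolin family that were followed here, out of 31053 features in each count table. They were taken by their symbols, and each symbol matched a single row in both tables. C57BL/6 mice of the genotypes Zfp36_KO (deficient for Zfp36, Zfp36-/-) and WT (wild type) gave innate lymphoid cells (ILCs) from the lamina propria of the small intestine. Each library pooled cells of 4 mice, so there was 1 library per genotype and no replicate, and the labels used here give neither age nor sex. Live CD45+ cells were sorted that lacked lineage markers, CD3 and TCRβ and carried CD90.2 and CD127. Transcript ends were then counted by droplet sequencing as unique molecular identifiers (UMIs), where each UMI stands for a captured transcript molecule. No test between genotypes was possible, and every interval below covers counting error alone, not the spread between mice.

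Tristetraprolin, the product of Zfp36, binds AU-rich elements in the 3′ untranslated regions (UTRs) of messenger RNAs and recruits the CCR4-NOT complex, which removes their poly(A) tails so that they are degraded. Its messenger is itself an early response transcript and carries AU-rich elements of the kind the protein binds. Zfp36l1 and Zfp36l2 encode the paralogs BRF1 and BRF2, which share the RNA-binding domain and are known for restraining growth and cell cycle entry during lymphocyte development. The relative levels of the 3 genes in each cell type are of interest in a mouse that lacks only the first of them.

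The members share a tandem pair of CCCH zinc fingers, the domain that contacts RNA. In the annotation (GENCODE M21, build GRCm38/mm10) each gene has 2 exons and lies on the minus strand: Zfp36 (ENSMUSG00000044786) at chr7:28376784-28380253, Zfp36l1 (ENSMUSG00000021127) at chr12:80107754-80113013 and Zfp36l2 (ENSMUSG00000045817) at chr17:84183931-84187947. The coding stretch from the first zinc-binding cysteine to the last zinc-binding histidine lies in exon 2 of each gene and is 174 bases long, at chr7:28378044-28378217, chr12:80110075-80110248 and chr17:84186554-84186727. It is shown, 5′ to 3′ on the coding strand, because it is what makes the 3 genes a family, and capitals mark the codons of the zinc-binding cysteines and histidines.
Zfp36: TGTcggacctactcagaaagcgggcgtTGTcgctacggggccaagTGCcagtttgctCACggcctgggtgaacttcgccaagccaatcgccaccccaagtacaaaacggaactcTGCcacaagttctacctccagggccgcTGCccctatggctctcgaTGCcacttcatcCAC
Zfp36l1: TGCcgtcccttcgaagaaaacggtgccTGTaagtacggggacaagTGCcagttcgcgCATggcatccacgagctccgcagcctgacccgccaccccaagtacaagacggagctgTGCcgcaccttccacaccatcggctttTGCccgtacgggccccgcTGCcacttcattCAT
Zfp36l2: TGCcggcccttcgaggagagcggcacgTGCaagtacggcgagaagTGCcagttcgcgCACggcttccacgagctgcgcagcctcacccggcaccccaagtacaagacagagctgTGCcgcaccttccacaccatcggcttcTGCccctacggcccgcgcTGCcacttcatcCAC
Over these bases Zfp36l1 and Zfp36l2 were 87.4% identical, against 67.8% for Zfp36 with Zfp36l1 and 69.0% for Zfp36 with Zfp36l2. Zfp36 is therefore the more distant member in this stretch.

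Each of the 3 messengers also holds 3 copies of TATTTAT, the DNA spelling of the core AU-rich element, in its annotated 3′ UTR of 774, 1835 and 1822 bases. The motif was searched on the transcript strand, and overlapping copies were counted. At least 1 copy was found in 27.6% of 21039 genes with a 3′ UTR, and 3 or more copies in 4.14% of them, UTRs of every length included. The first copy of each member is shown with its flanks, with the motif in capitals, at chr7:28376965-28376994, chr12:80108421-80108450 and chr17:84184913-84184942, minus strand.
Zfp36: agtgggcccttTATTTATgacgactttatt
Zfp36l1: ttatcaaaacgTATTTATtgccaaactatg
Zfp36l2: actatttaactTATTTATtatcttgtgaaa
A match of letters is not evidence that the site is bound. Genes on the opposite strand overlap all 3 members in this annotation (Gm44710, Gm26669 and AC132455.1), and whether the counting used strand is not given in the sources used here.

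After removal of barcodes with under 500 genes or over 10% mitochondrial UMIs and of predicted doublets, 3334 cells of the Zfp36_KO library and 3360 cells of the WT library remained, with a median of 5336.5 and 5292.5 UMIs per cell. The libraries shared 2 cell barcodes. Y-linked transcripts were seen in 16.0% of Zfp36_KO cells and 0.119% of WT cells, so the pools differed in the sex of their mice. The ratios without those Zfp36_KO cells are given with the alternatives at the end. A cell of a male mouse can lack such a UMI, so that alternative does not remove the difference in sex. Cells were placed in 9 classes by UMIs of marker genes. For Zfp36_KO and WT these held 234 and 340 Ccr6+ ILC3 (the lymphoid tissue inducer type), 335 and 345 Ncr1+ ILC3, 347 and 199 ILC3 with neither marker, 1116 and 629 ILC2, and 180 and 193 ILC1/NK cells. Although the sort was set to remove T cells and did not aim at the other classes, there were 38 Zfp36_KO and 1117 WT T cells, 137 and 76 plasma cells, 202 and 34 dendritic cells, and 49 and 15 macrophages. Another 342 Zfp36_KO and 191 WT cells met no gate, and 319 and 194 met several or belonged to classes left out. The markers that set the gates were also looked for among the 10 leading genes of each class, which cannot test the names of the classes. In both libraries 2 to 4 genes of the own list were there in ILC2, ILC1/NK cells, T cells, plasma cells, dendritic cells and macrophages. Among all ILC3 together this was so for 3 genes in the Zfp36_KO library and 1 in the WT library. Of the ILC3 subsets, Zfp36_KO cells with neither marker had 2 ILC3 genes among their 10 leading genes, and the other subsets had 0 in either library. WT cells with neither marker also had 0. Each subset was set against cells that include the other ILC3 subsets. The names of all 9 classes rest on the gates alone. WT Ncr1+ ILC3 had 1 ILC1/NK gene there, Ncr1, by which that subset was gated.

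Zfp36, the gene targeted in the knockout, was measured first. Over all kept cells it had 377 CPM (the gene's UMIs scaled to a common total, here that of the cells compared) in the Zfp36_KO library and 634 CPM in the WT library. Its transcript thus remained detectable in the library labelled Zfp36_KO. The labels used here do not say which part of the gene the allele lacks, and 3′ tags that lie outside that part cannot check the genotype.

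Within classes, Zfp36 was lower in Zfp36_KO than in WT cells in all 9. The ratio was lowest in Ncr1+ ILC3, with an interval that lay inside that of T cells. All ILC3 together had 303 CPM in the Zfp36_KO library and 1157 CPM in the WT library, a WT level 3.82 times as high (interval 3.59 to 4.07). Ncr1+ ILC3, the natural cytotoxicity receptor type, had 311 CPM in Zfp36_KO and 1362 CPM in WT cells, a log2 ratio of -2.13 (-2.27 to -2.00). ILC1/NK markers together made 1511 CPM in Zfp36_KO and 2466 CPM in WT Ncr1+ ILC3, and their part in this ratio was not tested. The difference was smaller in the other ILC3 subsets, whose intervals did not meet that of Ncr1+ ILC3. Without the 5% of cells richest in the gene, an alternative chosen after seeing the data, these intervals did meet. The log2 ratio was then -2.23 (-2.38 to -2.07) in Ncr1+ ILC3 and -2.14 (-2.42 to -1.87) in Ccr6+ ILC3. With neither marker it was -2.03 (-2.25 to -1.83). Ccr6+ ILC3 had 261 CPM in Zfp36_KO and 884 CPM in WT cells (log2 ratio -1.76, -1.97 to -1.56). ILC3 with neither marker had 327 CPM in Zfp36_KO and 1076 CPM in WT cells (-1.72, -1.89 to -1.55). The 3 ILC3 subsets were thus ordered in the WT library, where none of their intervals met, while in the Zfp36_KO library neighbouring intervals overlapped.

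Among the other lymphoid classes the WT excess was smaller in ILC2. ILC2, the type 2 cytokine producers, had 322 CPM of Zfp36 in the Zfp36_KO library and 729 CPM in the WT library (log2 ratio -1.18, -1.26 to -1.10). ILC1/NK cells had 297 CPM in Zfp36_KO and 842 CPM in WT cells (-1.50, -1.71 to -1.30). T cells had 105 CPM in Zfp36_KO and 359 CPM in WT cells (-1.78, -2.37 to -1.24). The interval of ILC2 lay wholly above those of the 3 ILC3 subsets and of ILC1/NK cells.

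The T cell value compares unlike cells. Of the 38 Zfp36_KO T cells, 15 had a Trac UMI (the αβ receptor constant chain) and 19 had Trdc (the δ chain) without Trac, whereas 1050 of 1117 WT T cells had Trac. Among Trac+ cells alone Zfp36 had 142 CPM in Zfp36_KO and 346 CPM in WT cells (log2 ratio -1.29, -2.29 to -0.45). Among Trdc+ Trac- cells it had 112 CPM in 19 Zfp36_KO cells and 683 CPM in 47 WT cells (-2.61, -3.44 to -1.87). Zfp36 was lower in the Zfp36_KO library in either subset. Dntt, Arpp21, Myb, Sox4, Tcrg-C2 and Trdc were among the 10 leading genes of the Zfp36_KO T cells. They were not among those of the WT T cells. Whether the cells of a subset are otherwise alike between the libraries was not tested.

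The cells with the most and the least Zfp36 were both outside the ILC lineage. Macrophages had the highest level in either library, 1293 CPM in Zfp36_KO and 2328 CPM in WT cells (log2 ratio -0.85, -1.05 to -0.65). Of the WT macrophage UMIs, 27.9% came from 1 of the 15 cells. Plasma cells had the lowest level, 53.7 CPM in Zfp36_KO and 115 CPM in WT cells (-1.10, -1.35 to -0.85). Their totals are taken up by immunoglobulin transcripts, so a CPM there is lower for every other gene.

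Dendritic cells showed the smallest difference. They had 539 CPM of Zfp36 in the Zfp36_KO library and 725 CPM in the WT library (log2 ratio -0.43, -0.57 to -0.29). Their interval did not meet that of any other class. Macrophage markers moved with this comparison: UMIs of all 10 listed genes were present in both libraries, and together they made 2343 CPM in Zfp36_KO and 5683 CPM in WT dendritic cells. In addition 1 of the 34 WT dendritic cells held 14.5% of the WT Zfp36 UMIs, and the part of either in the result was not tested.

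The rank of dendritic cells therefore differed between the libraries. In the Zfp36_KO library they came second after macrophages, and their interval lay above those of all lymphoid classes. In the WT library they came seventh of 9, with an interval that overlapped that of ILC2, and the 3 ILC3 subsets stood above them. Beyond dendritic cells, the order in the Zfp36_KO library was almost flat among ILCs, whose levels lay between 261 and 327 CPM with overlapping neighbours.

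**Figure D1:**
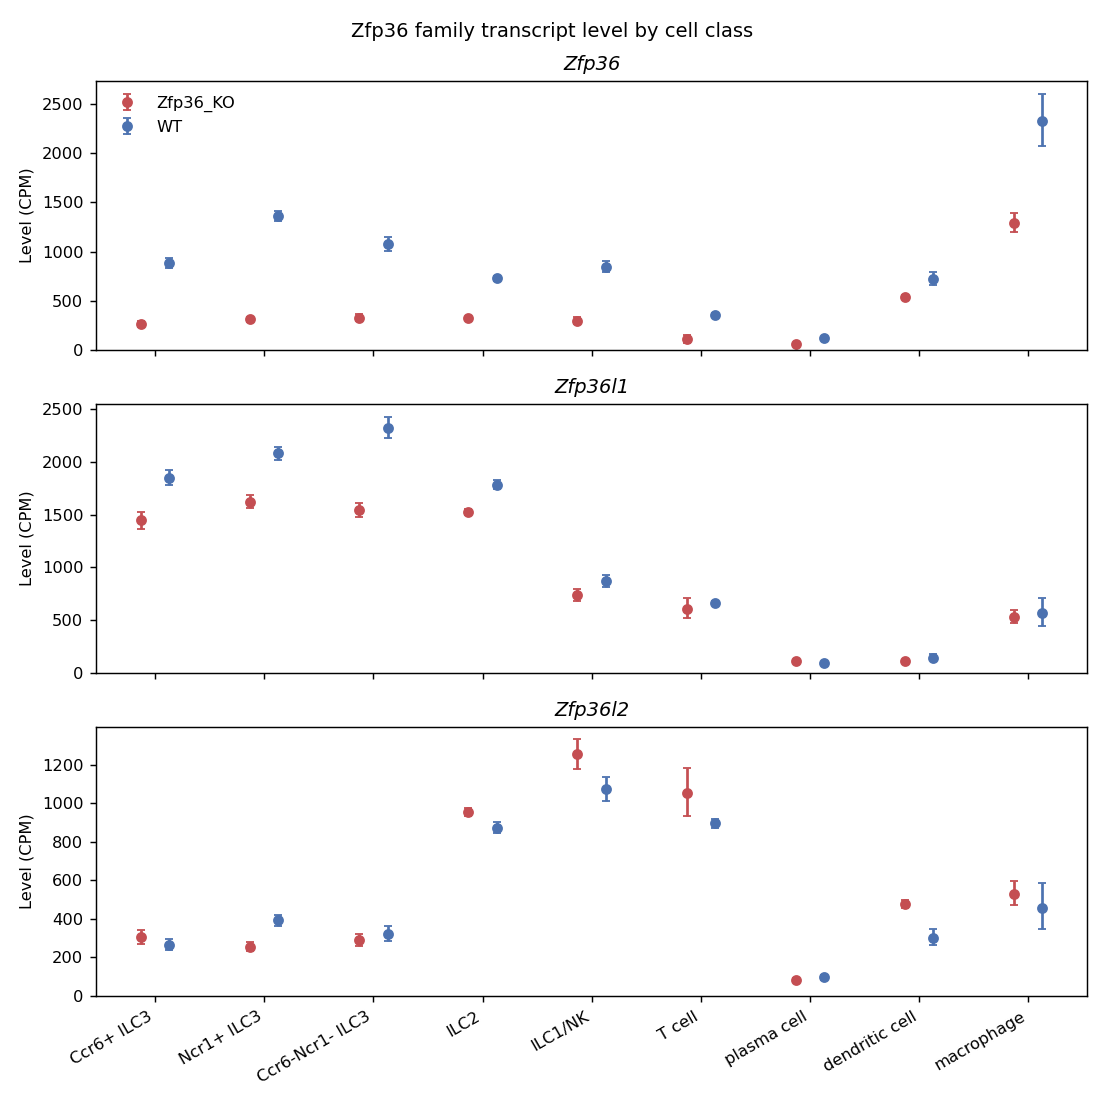
Level of Zfp36, Zfp36l1 and Zfp36l2 (vertical axes, CPM of summed UMIs, 1 panel per gene) in 9 cell classes of the Zfp36_KO library (red, left) and the WT library (blue, right); bars are exact 95% Poisson intervals and cover counting error only. Zfp36 is lower in Zfp36_KO cells in every class. Zfp36l1 is higher in Zfp36_KO cells in plasma cells alone, and Zfp36l2 is higher in some classes and lower in others.

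A difference of 1.5-fold or more was used to set these ratios against all genes with at least 50 UMIs over both libraries. Zfp36 was lower by that much in 8 of 9 classes, dendritic cells being the exception. Among all genes measured, the share lower by that much was 5.96% in Ccr6+ ILC3, 4.33% in Ncr1+ ILC3, 4.72% in ILC3 with neither marker, 3.31% in ILC2, 5.19% in ILC1/NK cells, 15.8% in T cells, 2.2% in plasma cells, 6.99% in dendritic cells and 8.75% in macrophages. The median log2 ratio of all genes lay above 0 in every class, from 0.13 in ILC1/NK and T cells to 0.34 in plasma cells. Relative to that median, the Zfp36 ratio was further below 0 in every class, at -2.09 in all ILC3, -1.35 in ILC2 and -0.60 in dendritic cells.

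Markers of other lineages were measured beside the ILC values. In ILC3, macrophage markers together made 34.2 CPM in Zfp36_KO and 35.2 CPM in WT cells. ILC1/NK markers made 892 and 1349 CPM and T cell markers 912 and 1289 CPM in Zfp36_KO and WT ILC3, and both lists share genes with Ncr1+ ILC3 or lymphoid cells in general. In ILC2, T cell markers made 1467 CPM in Zfp36_KO and 2256 CPM in WT cells, and the part of these differences in the Zfp36 ratio was not tested.

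Zfp36l1, the BRF1 gene, was the most abundant member in ILC3 and ILC2. All ILC3 together had 1556 CPM in the Zfp36_KO library and 2025 CPM in the WT library (log2 ratio -0.38, -0.43 to -0.33). ILC2 had 1527 CPM in Zfp36_KO and 1786 CPM in WT cells (-0.23, -0.27 to -0.18). In ILC3 with neither marker it had 1544 CPM in Zfp36_KO and 2327 CPM in WT cells (-0.59, -0.68 to -0.50), where it was past 1.5-fold. That was the only class past that mark for this gene, and no class showed it higher by as much.

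Outside ILC3 and ILC2, Zfp36l1 was less abundant. ILC1/NK cells had 738 CPM in Zfp36_KO and 873 CPM in WT cells (log2 ratio -0.24, -0.39 to -0.10). T cells had 610 and 660 CPM in Zfp36_KO and WT, and macrophages had 533 and 564 CPM, with intervals of the ratio that include 0. In T cells and macrophages a difference was thus not detectable at this depth. Dendritic cells had 114 CPM in Zfp36_KO and 145 CPM in WT cells (-0.35, -0.66 to -0.03). Plasma cells were the class with a Zfp36l1 ratio above 0, with 112 CPM in Zfp36_KO and 89.3 CPM in WT cells (0.32, 0.10 to 0.55). With immunoglobulin genes left out of the total, a scaling chosen after seeing the data, that ratio was 0.072, and relative to the median of all genes it was -0.015. In sum the interval of the Zfp36l1 ratio lay below 0 in 6 classes, above 0 in 1 and included 0 in 2.

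In T cells the Zfp36l1 value hides opposite differences between unlike cells. Among Trac+ T cells it had 1042 CPM in 15 Zfp36_KO cells and 643 CPM in 1050 WT cells (log2 ratio 0.70, 0.36 to 1.01). Among Trdc+ Trac- T cells it had 449 CPM in 19 Zfp36_KO cells and 1039 CPM in 47 WT cells (-1.21, -1.62 to -0.82). Whether these subsets differ was not tested, and each Zfp36_KO value rests on under 100 UMIs.

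Zfp36l2, the BRF2 gene, had its highest levels in ILC1/NK cells, T cells and ILC2, and low levels in ILC3. ILC1/NK cells had 1254 CPM in the Zfp36_KO library and 1074 CPM in the WT library (log2 ratio 0.22, 0.10 to 0.35). T cells had 1052 CPM in Zfp36_KO and 897 CPM in WT cells (0.23, 0.05 to 0.40), and ILC2 had 955 and 874 CPM (0.13, 0.07 to 0.19). The median log2 ratio of all genes was 0.13 in ILC1/NK cells, 0.13 in T cells and 0.18 in ILC2. Relative to that median, the Zfp36l2 ratio was 0.094 in ILC1/NK cells, 0.10 in T cells and -0.048 in ILC2.

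The Zfp36l2 ratio passed 1.5-fold in 2 classes, in opposite directions. Ncr1+ ILC3 had 256 CPM in Zfp36_KO and 393 CPM in WT cells (log2 ratio -0.62, -0.79 to -0.45). Dendritic cells had 478 CPM in Zfp36_KO and 303 CPM in WT cells (0.66, 0.46 to 0.86), where 21.9% of all genes measured were higher by as much. Relative to the median of all genes the dendritic cell ratio was 0.49, which is short of 1.5-fold, and macrophage markers made 2343 CPM in Zfp36_KO and 5683 CPM in WT dendritic cells. Ncr1+ ILC3 was thus the ILC3 subset in which Zfp36 and Zfp36l2 were both lower by 1.5-fold or more in the Zfp36_KO library. The median log2 ratio of all genes was 0.14 in Ncr1+ ILC3 and 0.18 in ILC3 with neither marker. Ccr6+ ILC3 had 304 CPM in Zfp36_KO and 266 CPM in WT cells (0.19, -0.04 to 0.42), and ILC3 with neither marker had 290.3 and 321 CPM (-0.15, -0.38 to 0.09). Macrophages had 532 and 455 CPM in Zfp36_KO and WT (0.23, -0.19 to 0.66), and plasma cells had 83.5 and 96.3 CPM (-0.21, -0.44 to 0.03), with intervals that include 0.

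**Figure D2:**
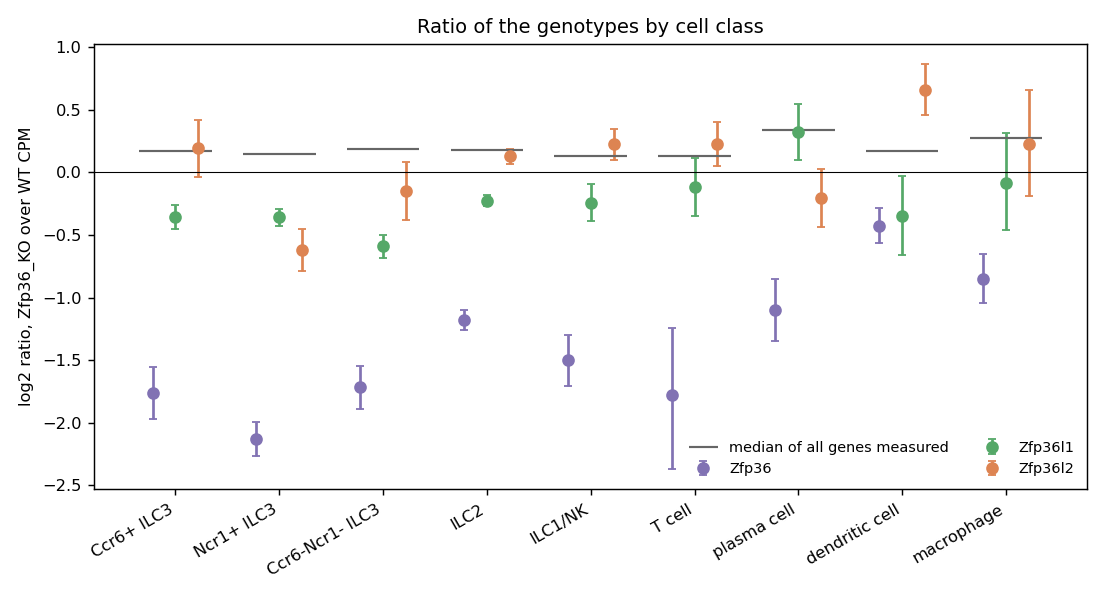
log2 ratio of Zfp36_KO over WT CPM (vertical axis) of the 3 genes in 9 cell classes, with exact 95% intervals that cover counting error only; horizontal dashes give the median ratio of all genes measured in the class. Zfp36 lies from -2.13 to -0.43, Zfp36l1 from -0.59 to 0.32 and Zfp36l2 from -0.62 to 0.66.

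Which member dominated differed by cell type. Since a UMI stands for a transcript end whatever the length of the transcript, the shares of the 3 genes in their summed UMIs were compared within each class, although capture may differ between genes. The 3 shares make up a whole, so a lower share of Zfp36 raises those of the paralogs even where their levels do not rise. In ILC3, Zfp36l1 held 72.8% of the family's UMIs in the Zfp36_KO library and 57.5% in the WT library, and Zfp36 held 14.2% and 32.9%. The level of Zfp36l1 was nevertheless lower in Zfp36_KO ILC3, with 1556 CPM against 2025 CPM in WT cells. In ILC2, Zfp36l1 held 54.5% in Zfp36_KO and 52.7% in WT cells, with Zfp36l2 next at 34.0% and 25.8%. Thus the same paralog led in both libraries in both ILC types, and in ILC2 of both libraries Zfp36 came last.

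Zfp36l2 led in the cytotoxic and T cell classes. In ILC1/NK cells it held 54.8% of the family's UMIs in the Zfp36_KO library and 38.5% in the WT library, where the 3 genes were nearly even (Zfp36 30.2%, Zfp36l1 31.3%). In T cells it held 59.5% in Zfp36_KO and 46.8% in WT cells. When T cells needed 1 marker more, which left 10 Zfp36_KO cells, the Zfp36_KO share was 44.4% and Zfp36l1 led instead with 46 UMIs against 40 of Zfp36l2. Within the WT T cells the leading member depended on the subset. In 110 Foxp3+ cells, the regulatory T cells, Zfp36l1 held 62.2% and Zfp36l2 15.8%, while in 138 Cd8a+ cells Zfp36l2 held 60.6% and Zfp36l1 28.2%. The Zfp36_KO library held 1 and 2 such cells, too few to set beside them.

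Zfp36 itself led in the myeloid classes of both libraries. It held 54.8% of the family's UMIs in Zfp36_KO and 69.6% in WT macrophages, and 47.7% in Zfp36_KO and 61.8% in WT dendritic cells. In Zfp36_KO dendritic cells Zfp36l2 followed closely with 42.3%, against 25.8% in WT dendritic cells. In plasma cells no gene held most of the UMIs: Zfp36l1 led with 44.8% in the Zfp36_KO library and Zfp36 with 38.3% in the WT library. The leading gene thus differed between the libraries in plasma cells. In WT plasma cells, however, the intervals of Zfp36 (35.0% to 41.6%) and Zfp36l2 (28.9% to 35.3%) met. The leading gene also differed in subsets of the T cells. Among Trac+ T cells Zfp36l1 led with 54.4% in 15 Zfp36_KO cells and Zfp36l2 with 47.5% in 1050 WT cells. Among Trdc+ Trac- T cells Zfp36l2 led with 68.5% in 19 Zfp36_KO cells and Zfp36l1 with 39.0% in 47 WT cells. In these WT cells the intervals of Zfp36l1 (35.5% to 42.6%) and Zfp36l2 (31.9% to 38.8%) met. In Zfp36_KO Trac+ cells those of Zfp36l1 (46.0% to 62.5%) and Zfp36l2 (30.4% to 46.6%) met as well.

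The summed level of the family, which includes the targeted gene Zfp36, was lower in the Zfp36_KO library in all 9 classes. No interval was computed for these sums, and they do not show how the paralogs alone differed. All 3 genes together made 2136 CPM in Zfp36_KO and 3521 CPM in WT ILC3. In ILC2 they made 2804 CPM in Zfp36_KO and 3388 CPM in WT cells, and in T cells 1767 and 1915 CPM. Dendritic cells had 1131 CPM in Zfp36_KO and 1174 CPM in WT cells, the closest pair of sums.

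**Figure D3:**
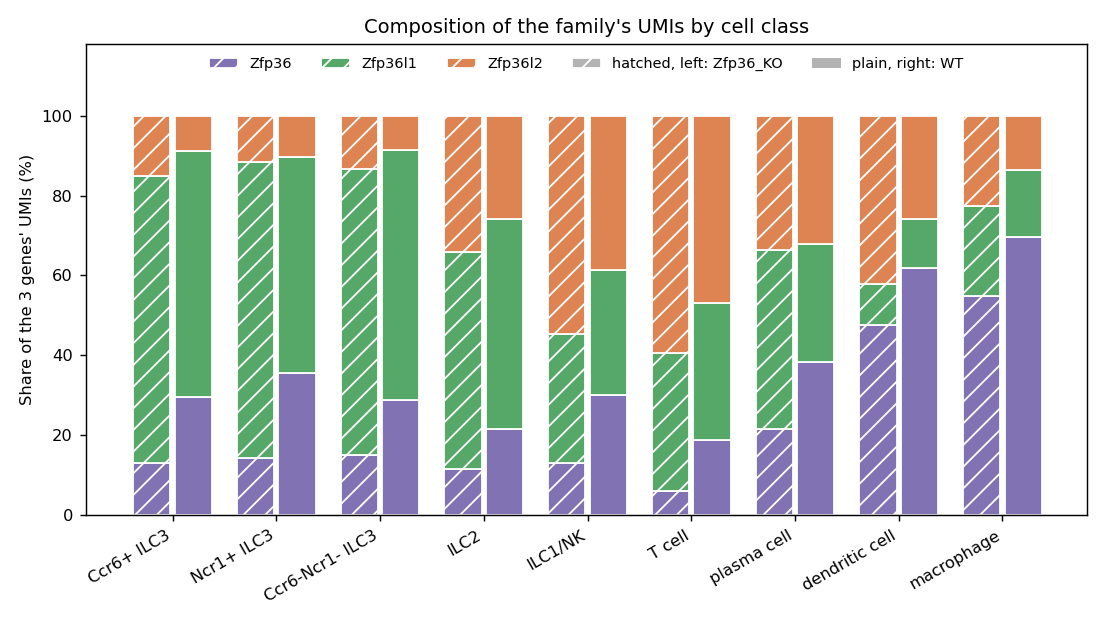
Share of the summed UMIs of the 3 genes held by each (vertical axis, %) in 9 cell classes; hatched left bars are Zfp36_KO cells and plain right bars are WT cells. Zfp36l1 fills most of the ILC3 bars, Zfp36l2 the largest part of the ILC1/NK and T cell bars, and Zfp36 the largest part of the dendritic cell and macrophage bars.

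The share of cells with a UMI of each gene was compared at a common depth of 2000 UMIs per cell, because shares depend on depth. Zfp36 was seen in 30.8% of 922 Zfp36_KO ILC3 (interval 27.8% to 33.9%) and in 66.4% of 899 WT ILC3 (63.2% to 69.5%). Without thinning the shares were 46.7% and 78.5%. In ILC2 it was seen in 29.2% of Zfp36_KO and 47.8% of WT cells, and in ILC1/NK cells in 33.5% and 56.3%. Both the level per class and the share of cells with a UMI were thus lower in the Zfp36_KO library in these 3 classes.

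In plasma cells, whose median depth was 30955 UMIs in the Zfp36_KO library and 39543 UMIs in the WT library, the thinned shares of Zfp36 were 13.9% and 14.5%, a difference of -0.61 percentage points (-11.9 to 9.27). The unthinned shares were 70.1% in Zfp36_KO and 80.3% in WT plasma cells. In dendritic cells the thinned shares were 53.3% in Zfp36_KO and 58.8% in WT cells, a difference of -5.49 points (-23.5 to 14.0). A difference in the share of cells was therefore not detectable at this depth in these classes. In macrophages Zfp36 was seen in 75.0% of 48 Zfp36_KO cells (60.4% to 86.4%) and in all 13 WT cells of sufficient depth. No class is known to lack these genes, so the share that free RNA alone would give was not measured, and T cell shares of 15.8% in Zfp36_KO and 34.6% in WT cells may include it.

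The shares of cells with a UMI of the paralogs lay closer together between the libraries. Zfp36l1 was seen in 84.5% of Zfp36_KO and 90.9% of WT ILC3, and in 83.3% of Zfp36_KO and 87.7% of WT ILC2. Zfp36l2 was seen in 34.7% of Zfp36_KO and 36.2% of WT ILC3, in 76.5% of Zfp36_KO and 69.6% of WT ILC2, and in 79.4% of Zfp36_KO and 80.5% of WT ILC1/NK cells. Zfp36l2 thus separated ILC2 and ILC1/NK cells from ILC3 in both genotypes.

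Cells with UMIs of all 3 members were less frequent in the Zfp36_KO library among ILC3 and ILC2. At 2000 UMIs per cell, they made up 10.95% of Zfp36_KO and 24.9% of WT ILC3, and 18.8% of Zfp36_KO and 30.9% of WT ILC2. Zfp36l1 without either other member was seen in 37.5% of Zfp36_KO and 19.02% of WT ILC3. Cells with Zfp36 alone were rare among ILC3, at 1.74% in Zfp36_KO and 2.11% in WT cells, and more frequent among dendritic cells, at 21.5% and 23.5%. No member was seen in 8.89% of Zfp36_KO and 4.67% of WT ILC3.

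Zfp36 is induced together with immediate-early genes, and 13 of these (Fos, Jun, Egr1, Dusp1 and others) were summed as a list beside it. The list made 16593 CPM in Zfp36_KO and 20649 CPM in WT ILC3, 11643 and 13796 CPM in ILC2, and 14635 and 18963 CPM in ILC1/NK cells. It made 6464 CPM in Zfp36_KO and 8216 CPM in WT dendritic cells, where the Zfp36 levels were 539 and 725 CPM, and 12999 and 17974 CPM in macrophages. Immediate-early transcripts thus also had lower levels in the Zfp36_KO library in these classes. In ILC3, ILC2 and ILC1/NK cells the Zfp36 levels lay further apart than the sums of the list, and in dendritic cells about as far apart. In Ccr6+ ILC3 the sums were close, 20695 CPM in Zfp36_KO and 20988 CPM in WT cells, while the Zfp36 levels there were 261 and 884 CPM. In plasma cells the list was higher in the Zfp36_KO library, 4964 against 4537 CPM in WT cells.

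Cells were then divided by immediate-early level, although the cells of a group need not be alike in it between the libraries. ILC3 of both libraries were ranked by the list's UMIs at 2000 UMIs per cell and divided into a low, a middle and a high group with common borders. In the low group Zfp36 had 0.159 UMIs per cell in Zfp36_KO and 0.487 in WT cells, a WT level 3.06 times as high (interval 2.21 to 4.25). In the high group it had 1.09 UMIs per cell in Zfp36_KO and 3.57 in WT cells, 3.28 times as high (2.86 to 3.78). In the middle group the WT level was 2.79 times as high (2.36 to 3.30). Over all ILC3 without the split, by CPM, it was 3.82 times as high (3.59 to 4.07). Zfp36 was therefore lower in Zfp36_KO ILC3 in all 3 groups, and Zfp36 was higher in the high group than in the low group within each library.

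The same held for ILC2 with smaller ratios. In the low group Zfp36 had 0.151 UMIs per cell in Zfp36_KO and 0.382 in WT cells, and in the high group 1.56 and 2.78. The WT level was 2.53, 1.69 and 1.79 times as high in the low, middle and high groups. Over all ILC2 without the split, by CPM, it was 2.26 times as high. Across cells, the Spearman correlation of Zfp36 with the list was 0.40 over 922 Zfp36_KO ILC3 and 0.57 over 899 WT ILC3. These cells share a library and a depth, and the values describe them only. For Zfp36l1 the correlation with the list was 0.31 in Zfp36_KO and 0.27 in WT ILC3. In Ccr6+ ILC3 it was 0.44 in Zfp36_KO and 0.19 in WT cells, beside 0.42 and 0.63 for Zfp36. For Zfp36l2 the values in all ILC3 were 0.15 in Zfp36_KO and 0.09 in WT cells, which is too weak to read.

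**Figure D4:**
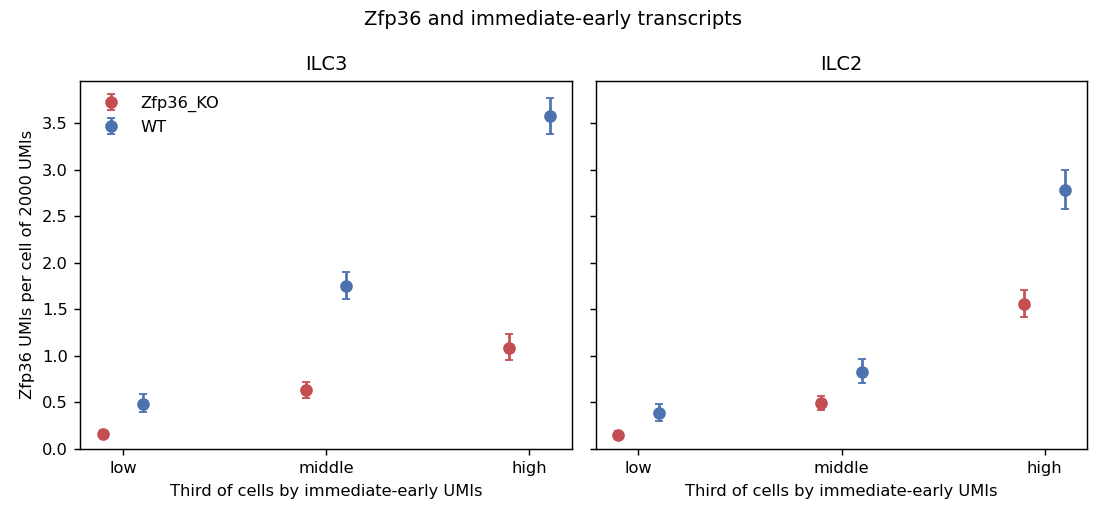
Zfp36 UMIs per cell of 2000 UMIs (vertical axis) in ILC3 and ILC2 divided into low, middle and high groups by immediate-early UMIs (horizontal axis); red is Zfp36_KO, blue is WT, and bars are exact 95% Poisson intervals. Zfp36 is higher in the high than in the low group in both libraries, and WT lies above Zfp36_KO in every group.

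ILC3 with and without a UMI of Il22, the gene of the cytokine IL-22, were set side by side because the study is about ILC3 that make it. In Zfp36_KO cells Zfp36 had 0.791 UMIs per cell of 2000 in 302 cells with an Il22 UMI and 0.427 in 620 cells without, 1.85 times as high (interval 1.55 to 2.21). In WT cells it had 2.76 UMIs per cell in 238 cells with and 1.97 in 661 cells without, 1.40 times as high (1.27 to 1.54). Zfp36l1 was higher in cells with an Il22 UMI as well, 1.30 times in Zfp36_KO and 1.29 times in WT cells. Zfp36l2 was lower in cells with an Il22 UMI, with 0.480 UMIs per cell against 0.650 in Zfp36_KO cells and 0.546 against 0.699 in WT cells.

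The split by Il22 also separated immediate-early levels. Cells with an Il22 UMI held 40.5 immediate-early UMIs per cell in Zfp36_KO and 48.8 in WT cells, and cells without held 30.8 and 39.1, so the part of activation in these ratios was not tested. Zfp36 was lower in Zfp36_KO than in WT cells on either side of the split. The WT level was 3.49 times as high among cells with an Il22 UMI and 4.61 times as high among cells without.

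Among 7733 genes, those whose level over the 9 WT classes was most like that of each member were named by Pearson's r of log2(CPM + 1). The classes share a library, and with 9 points many genes reach a high r. For Zfp36 these were Chka (r = 0.41 over the Zfp36_KO and 0.99 over the WT classes), Slc25a1, Mef2a, Tcn2 and Clasp2. For Zfp36l1 they were Cnot10 (0.88 over the Zfp36_KO and 0.99 over the WT classes), Rundc1, Xlr4a, Gm17745 and Lmo4. For Zfp36l2 they were Pde3b (0.85 over the Zfp36_KO and 0.96 over the WT classes), Ppp1r15a, Lilrb4a, Foxn3 and Lilr4b. These genes were picked for the highest r, so any gene not picked has a lower r by that choice. Between the members, r over the WT classes was 0.61 for Zfp36 and Zfp36l1, 0.42 for Zfp36 and Zfp36l2, and 0.49 for Zfp36l1 and Zfp36l2.

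The machinery with which the family works was followed as a list of 56 genes. It held subunits of CCR4-NOT, decapping, exosome and poly(A)-binding factors, other AU-rich element binders, and kinases and partners of tristetraprolin. In ILC3, 7 of 55 measured genes were higher by 1.5-fold or more in the Zfp36_KO library and 0 were lower, where 14.5% of all genes measured were higher and 4.28% lower. In ILC2 also 7 of 55 were higher and 0 lower, with 15.9% of all genes higher and 3.31% lower. The median log2 ratio of the list was 0.23 in ILC3 and 0.27 in ILC2, beside 0.16 and 0.18 over all genes. These shares lie near the background and are no result about the list.

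The counts in the other classes are given beside the share of all genes in the same class, with no test of the list. In ILC1/NK cells 4 of 45 genes were higher and 3 lower, with 15.7% of all genes higher and 5.19% lower. In T cells 11 of 56 were higher and 6 lower, with 24.3% of all genes higher and 15.8% lower. In plasma cells 15 of 41 were higher and 1 lower, with 31.9% of all genes higher and 2.2% lower. In dendritic cells 13 of 55 were higher and 2 lower, with 21.9% of all genes higher and 6.99% lower. In macrophages 7 of 17 were higher and 1 lower, with 29.3% of all genes higher and 8.75% lower. Ccr6+ ILC3 had 7 of 50 higher and 0 lower, with 18.5% of all genes higher and 5.96% lower. Ncr1+ ILC3 had 7 of 54 higher and 0 lower, with 15.1% of all genes higher and 4.33% lower. ILC3 with neither marker had 14 of 47 higher and 1 lower, with 19.2% of all genes higher and 4.72% lower.

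A few members of the list were past 1.5-fold in several classes with an interval that excludes 0. They were picked from the list by that number of classes, and each was past the mark as higher in Zfp36_KO cells. Other members went the other way in fewer classes or short of the mark. Btg2 had 834 CPM in Zfp36_KO and 1795 CPM in WT macrophages (log2 ratio -1.11, -1.34 to -0.87). Tob2 had -0.58 (-0.95 to -0.21) in ILC3 with neither marker, just short of 1.5-fold. The share of all genes past the mark in as many classes was not measured, so the numbers of classes below describe these genes only. Xrn1, the exonuclease that degrades decapped messengers from the 5′ end, was higher in Zfp36_KO cells in 8 of 9 classes and had under 50 UMIs in macrophages. It had 134 CPM in Zfp36_KO and 70.6 CPM in WT ILC3 (log2 ratio 0.93, 0.72 to 1.13), and 88.5 and 48.3 CPM in ILC2 (0.88, 0.64 to 1.11). Its ratio was lowest in T cells (0.59, 0.02 to 1.11) and highest in plasma cells (1.92, 1.24 to 2.67). Ddx6, a helicase of translational repression and decapping, was higher in 5 classes, with 302 CPM in Zfp36_KO and 185 CPM in WT ILC3 (0.70, 0.58 to 0.83). In macrophages Ddx6 had 208 CPM in Zfp36_KO and 267 CPM in WT cells (-0.36, -0.92 to 0.24).

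Cnot6, a deadenylase subunit of CCR4-NOT, was past 1.5-fold in 5 classes, among them ILC2 with 135 CPM in Zfp36_KO and 72.8 CPM in WT cells (log2 ratio 0.90, 0.71 to 1.09). Khsrp, another protein that binds AU-rich elements, was past it in 4 classes, as was Rc3h1, which encodes the decay factor roquin. Rc3h1 had 64.9 CPM in Zfp36_KO and 38.5 CPM in WT ILC3 (0.75, 0.47 to 1.04). Cnot4 and Ywhag, which encode a ubiquitin ligase of the CCR4-NOT complex and a 14-3-3 protein, were past it in 3 classes each. All of these differences stand beside a median of all genes that itself lies above 0.

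**Figure D5:**
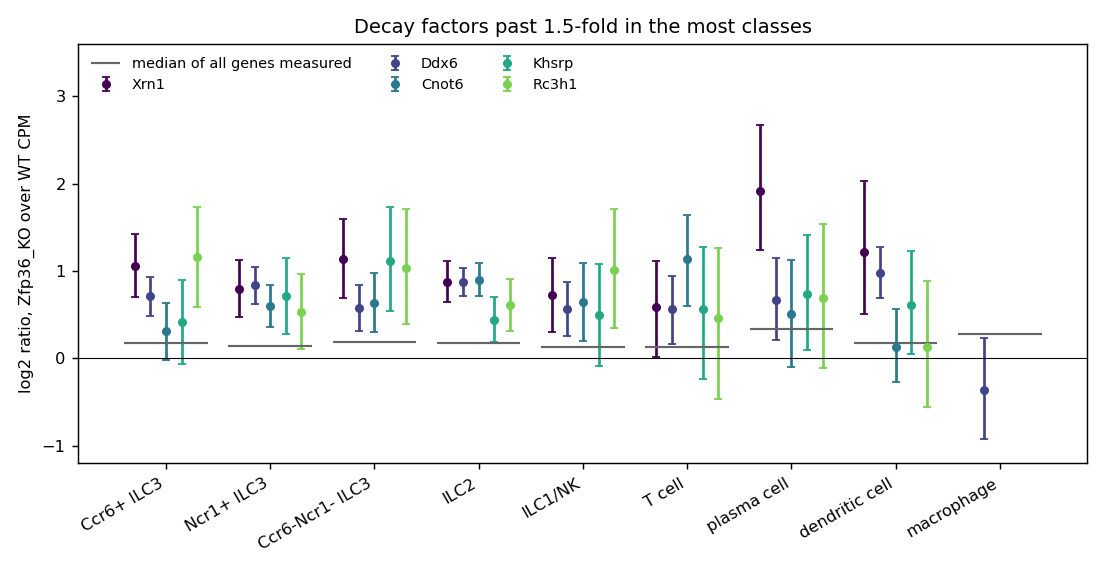
log2 ratio of Zfp36_KO over WT CPM (vertical axis) of Xrn1, Ddx6, Cnot6, Khsrp and Rc3h1 in 9 cell classes, with exact 95% intervals that cover counting error only; horizontal dashes give the median ratio of all genes measured in the class. Xrn1 lies above that median in the 8 classes where it was measured, and in macrophages Ddx6 is the gene of these 5 that was measured.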

How the data were processed

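The deposited values are raw UMI counts per gene and cell barcode; per the file headers and the submitters' processing notes the authors used Cell Ranger 3.1.0 with genome build mm10. The annotation release and strand setting are not given in the sources used here. The counts were not normalized before deposit. Barcodes with under 500 genes or over 10% mitochondrial UMIs were removed. Scrublet, as run in scanpy 1.11.5, marked 5 Zfp36_KO and 37 WT barcodes (0.15% and 1.09%) as doublets, which were removed too. Since the caller marked few, cells with markers of several classes were left out, but only in part. T cells that also met an ILC gate were not excluded, nor were ILC3 that met the ILC1/NK gate. Dendritic cells and macrophages were kept apart by C1q UMIs, not by the marker list of the other. ILC3 markers made 1029 CPM in Zfp36_KO and 379 CPM in WT T cells, and the part of such cells in the ratios was not tested. The depths were 27733804 UMIs in the Zfp36_KO and 24721524 in the WT library.

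A cell entered a class by the number of its markers with a UMI: 3 of 6 for ILC3, 3 of 10 for ILC2, 4 of 9 for ILC1/NK, 5 of 8 for T cells, 5 of 7 for plasma cells, 3 of 11 for dendritic cells (at most 3 C1q UMIs) and 4 of 10 for macrophages (at least 10 C1q UMIs). A further marker condition on the ILC3 and ILC1/NK gates is not reported here. These numbers were set after the marker counts had been seen, without reference to the family. ILC3 were divided by Ccr6 and Ncr1 UMIs, and cells with both (35 Zfp36_KO and 27 WT) count in all ILC3 only. UMIs were summed per class and library and scaled to CPM. Ratios carry the exact 95% interval of the split of UMIs between the libraries, levels exact Poisson intervals, and shares of cells or UMIs exact Clopper-Pearson intervals, all for counting error only. Shares of cells were taken after thinning each cell to 2000 UMIs, without the cells below that depth. The arithmetic was tested on simulated data.

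The genes named beside the members were, for each member, the 5 with the highest r over the WT classes among genes with at least 200 UMIs, and the decay list's members past 1.5-fold in the most classes with an interval that excludes 0 (up to 10). The members and lists were chosen with earlier results of these data known. Coordinates and sequences are from GENCODE M21.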

Additional observations from a re-analysis of the deposited data

Results flagged for a closer look

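Zfp36l2 differed between Zfp36_KO and WT in opposite directions in 2 classes, each past 1.5-fold with an interval that excludes 0, and this is what marked it for a closer look. Its log2 ratio was 0.66 in dendritic cells (202 Zfp36_KO and 34 WT cells) and -0.62 in Ncr1+ ILC3 (335 and 345 cells). Relative to the median of all genes the dendritic cell ratio was 0.49, short of 1.5-fold. Macrophage markers made 2343 CPM in Zfp36_KO and 5683 CPM in WT dendritic cells, and ILC1/NK markers made 1511 CPM in Zfp36_KO and 2466 CPM in WT Ncr1+ ILC3. Their part in these ratios was not tested. The difference between the classes was not tested, since each genotype has 1 library.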

How the results depend on the processing

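Zfp36 had a log2 ratio below 0 in every class under every alternative that gave a ratio. No paired analysis was possible because each genotype has 1 library, and leaving out a replicate was not possible for the same reason. Keeping predicted doublets and thinning to 3000 UMIs moved no value beyond its interval.

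Relative to the median of all genes, the log2 ratio of Zfp36 was -2.27 in Ncr1+ ILC3, -1.90 in ILC3 with neither marker, -2.09 in all ILC3, -1.35 in ILC2, -1.43 in plasma cells, -0.60 in dendritic cells and -1.12 in macrophages. That of Zfp36l1 was -0.53 in Ccr6+ ILC3, -0.50 in Ncr1+ ILC3, -0.78 in ILC3 with neither marker, -0.54 in all ILC3, -0.40 in ILC2 and -0.015 in plasma cells. That of Zfp36l2 was -0.45 in all ILC3, -0.048 in ILC2, 0.094 in ILC1/NK cells and -0.54 in plasma cells. Without mitochondrial and ribosomal protein genes in the total, Zfp36l1 had -0.44 in ILC3 and -0.30 in ILC2, and Zfp36l2 had 0.056 in ILC2. With equal weight per cell, Zfp36l2 had -0.18 in ILC3 and -0.061 in T cells. With Zfp36_KO cells that lack a Y-linked UMI, Zfp36 had -1.98 in Ncr1+ ILC3 and -1.30 in ILC2, Zfp36l1 had -0.28 in Ncr1+ ILC3 and -0.32 in ILC3, and Zfp36l2 had 0.054 in ILC2. With 1 marker more, T cells had 0.34 for Zfp36l1 and -0.32 for Zfp36l2.

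Alternatives chosen after seeing the data were the next 3. Without the 5% of cells richest in the gene, Zfp36 had -2.14 in Ccr6+ ILC3, -2.03 in ILC3 with neither marker, -2.11 in ILC3 and -1.29 in ILC2. Ncr1+ ILC3 then had -2.23, with an interval that met those of the other ILC3 subsets. Without immunoglobulin genes in the total, plasma cells had 0.072 for Zfp36l1 and -0.46 for Zfp36l2. With Trac+ T cells only, Zfp36l1 had 0.70 and Zfp36l2 -0.29.

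With 1 marker more, the leading gene's share of the family's UMIs was 55.4% in Zfp36_KO and 54.0% in WT ILC2 (Zfp36l1) and 58.8% in Zfp36_KO and 43.4% in WT ILC1/NK cells (Zfp36l2), and in 10 Zfp36_KO T cells Zfp36l2 no longer led, with 44.4%. With all deposited barcodes it was 45.7% in WT T cells. With equal weight per cell it was 58.8% in WT ILC3, 53.0% in Zfp36_KO ILC2, 57.6% in Zfp36_KO ILC1/NK cells, 53.7% in Zfp36_KO and 48.1% in WT T cells, and 58.3% for Zfp36 in WT dendritic cells. At 1000 UMIs per cell the share of cells with Zfp36 differed by -25.2 points in Ccr6+ ILC3 and -29.1 points in ILC3. With at least 200 UMIs, the share of all genes lower was 2.12% in ILC2 and 4.31% in dendritic cells, and the share higher was 10.1% in ILC1/NK cells. With at least 20 UMIs, 1 of 55 genes of the decay list was lower in Ccr6+ ILC3, beside 8.2% of all genes. In ILC3 with neither marker 2 of 54 were lower, beside 6.89% of all genes. In ILC1/NK cells 8 of 54 were higher, beside 18.1% of all genes. In macrophages 16 of 38 were higher and 4 lower, beside 34% and 11.4% of all genes. The causes were not tested.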

Other observations

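Cells outside the 9 classes give values as well. The 342 Zfp36_KO and 191 WT cells that met no gate had 411 CPM of Zfp36 in the Zfp36_KO library and 1181 CPM in the WT library (log2 ratio -1.52, -1.68 to -1.37). Their Zfp36l1 level was 961 CPM in Zfp36_KO and 1493 CPM in WT cells, and their Zfp36l2 level 922 and 778 CPM. Cells that met several gates or belonged to classes left out had 561 CPM of Zfp36 in 319 Zfp36_KO cells and 494 CPM in 194 WT cells (0.18, 0.09 to 0.27), the only set of cells listed here in which Zfp36 was not lower in the Zfp36_KO library.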
